A study of Homo sapiens with 6 samples.

Results

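The regions described are the m6A peaks that the authors' annotation placed within the 5′ UTR alone, with no part in coding sequence, at a stop codon, in a 3′ UTR or on non-coding RNA. They came from WT U2OS cells, a human bone osteosarcoma line, treated with DF2 siRNA #1, DF2 siRNA #2 or control siRNA. The 2 DF2 siRNAs are directed at YTHDF2, and all 3 conditions shared the same cell line and the same assay. RNA from the cytoplasm, in fragments of about 100 nt, was captured with an anti-m6A antibody, and the labels hold 1 m6A-IP and 1 input library per condition. The labels call the cell type epithelial, and the antibody treatment applies to the m6A-IP libraries in all 3 conditions. Taking rows whose annotation was exactly the 5′ UTR gave 997 of 13147 peaks with siRNA 1, 1008 of 13310 peaks with siRNA 2 and 1052 of 15272 peaks with control siRNA. With 1 merged list per condition there was no replicate, so no difference between lists was tested, and every interval below is a 95% exact binomial (Clopper-Pearson) interval that covers counting error only.

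N6-methyladenosine (m6A) is an internal mark of messenger RNA, most frequent near stop codons and in 3′ UTRs, and YTHDF2 is a reader protein that binds m6A and speeds the decay of mRNAs carrying it. The 5′ UTR carries the cap and the path of the scanning ribosome, and m6A there has been studied for its role in cap-independent initiation and in the response of cells to heat shock and other stress. Anti-m6A antibodies also bind m6Am, the related mark on an adenosine next to the cap, so enrichment at the first bases of a transcript can come from either mark, and the peak lists do not tell them apart.

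The starts of 12 genes are shown because their 5′ UTR-only peaks carry the main contrast between the lists and hold the annotated first base of the gene. Each sequence runs 5′ to 3′ from 10 bases before the start to 20 bases into the transcript, on the plus strand, and was taken from the RefSeq promoter table of GRCh38.p14. The first transcribed base is in capitals, as is GGAC, the most frequent core of the m6A consensus, where it lies in the transcribed bases shown.
UBB: aggggagggcGtgggggaggggagggcgag
ZDHHC5: cgcgctgcttCtctgaggcaGGACggcact
ZNF146: ctcgctctccGagtgcgcaagcgcagcgca
RPL41: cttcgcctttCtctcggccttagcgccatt
TMSB4X: cccgcccgacAactcggtggtggccactgc
TIMP3: gcagcggcgcAgagcgggcagcaggcaggc
SLC16A3: cagggagggcGaggccgtgccccacatcca
NIPA2: ctaggttttcCggcgccggccctaggtccc
BANF1: agaaagttctAgtggcttgaggtatccgca
BFAR: aagcctctccCtcttcctctgctcccgcgg
CEPT1: cccctctggcGcctggcataaggtagcccc
NDUFB3: tgacaacctcCgtttccggttggctccggt
UBB, ZDHHC5, ZNF146 and RPL41 had a 5′ UTR-only peak in all 3 lists, at chr17:16381280-16381309, chr11:57668104-57668133, chr19:36215096-36215125 and chr12:56116623-56116652 for the bases shown. TMSB4X, TIMP3, SLC16A3 and NIPA2 had one with both siRNAs and no overlapping control peak, at chrX:12975100-12975129, chr22:32801695-32801724, chr17:82228425-82228454 and chr15:22838656-22838685. BANF1, BFAR, CEPT1 and NDUFB3 had one in the control list alone, at chr11:66002493-66002522, chr16:14632941-14632970, chr1:111139839-111139868 and chr2:201071991-201072020. The first base was A in 3 of the 12 starts. RPL41, which encodes a small ribosomal protein, begins with C followed by pyrimidines, the layout of a terminal oligopyrimidine (TOP) mRNA.

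Peaks within the 5′ UTR alone made up a small share of each list. It was 7.58% (7.14 to 8.05) with siRNA 1, 7.57% (7.13 to 8.04) with siRNA 2 and 6.89% (6.49 to 7.30) with control siRNA. They lay in 962, 964 and 1010 genes. Across the 3 lists together, 1797 of 10825 genes with any peak held at least 1 (16.6%), and 339 of these genes held one in every list. A further 195 genes held one with both siRNAs but not in control, 190 with siRNA 2 and control, and 76 with siRNA 1 and control. The remaining genes held one in a single list, 352 with siRNA 1, 240 with siRNA 2 and 405 with control siRNA. A gene counted as without one in a list may still have held a peak of another annotation there, also an overlapping one. Over all genes with any siRNA 1 peak, 88.8% had any siRNA 2 peak and 88.9% any control peak.

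These peaks were short and weak beside the rest of their lists. The median covered length was 200 bases in each list, the width of a single bin, against 600 bases for all other peaks. A single 200-base width was found for 53.2% of them with siRNA 1, 51.3% with siRNA 2 and 56.6% with control siRNA, against 10.3%, 7.84% and 9.78% of other peaks. The score is a whole number that the authors gave each peak, and it is read here only as a percentile within its own list. The median percentile was 26.2 with siRNA 1, 27.9 with siRNA 2 and 24.5 with control siRNA, against 52.8, 52.3 and 52.5 for other peaks. Only 9, 16 and 11 of them stood in the top 10% of their list by score. The authors' fold enrichment had a median of 8.83 with siRNA 1, 11.2 with siRNA 2 and 10.6 with control siRNA, against 15.8, 19.7 and 20.5 for other peaks. An FDR of 0.01 or more was given to 32.8%, 35.9% and 39.9% of them, against 16.0%, 15.8% and 17.2% of other peaks. A score of 5 or less was carried by 127, 75 and 129 of them (12.7%, 7.44% and 12.3%), against 6.54%, 2.94% and 4.37% of other peaks. Blocks separated by an intron were present in 42.7%, 44.9% and 44.9%, close to the 40.4%, 42.0% and 45.3% of other peaks.

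Fewer of these peaks than of all peaks were found in every list, although that was still the most frequent overlap class in each. Of the siRNA 1 peaks, 416 overlapped a peak in both other lists (41.7%, 38.6 to 44.9), against 75.9% of all siRNA 1 peaks. Of the siRNA 2 peaks it was 439 (43.6%, 40.5 to 46.7), against 73.2% of all siRNA 2 peaks, and of the control peaks 463 (44.0%, 41.0 to 47.1), against 62.8% of all control peaks. An overlap here is at least 1 base of a block on the same strand, with a peak of any annotation. Found in 1 list alone were 327 siRNA 1 peaks (32.8%, 29.9 to 35.8), 186 siRNA 2 peaks (18.5%, 16.1 to 21.0) and 355 control peaks (33.7%, 30.9 to 36.7). Over all peaks of those lists the shares were 10.8% with siRNA 1, 6.51% with siRNA 2 and 22.3% with control siRNA. The gap between these peaks and the list as a whole was widest with siRNA 1. In control, peaks within the 3′ UTR alone had like shares, at 47.3% (45.3 to 49.4) in all 3 lists and 35.0% (33.1 to 37.0) in control alone. The place of control depended on its weakest peaks. When equally many of the highest-scoring peaks were taken from each list, the shares in 1 list alone were 34% with siRNA 1, 21.7% with siRNA 2 and 18.7% in control, and in the top 50% by score 31.6%, 17.2% and 15.9%.

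The siRNA lists shared more of these peaks with each other than either shared with control beyond the peaks common to all. With siRNA 1, 190 peaks overlapped a siRNA 2 peak and no control peak (19.1%, background 7.71%), while 64 overlapped a control peak and no siRNA 2 peak (6.42%, background 5.59%). With siRNA 2, 220 overlapped a siRNA 1 peak alone (21.8%, background 7.38%) and 163 a control peak alone (16.2%, background 13%). Of the control peaks, 67 overlapped a siRNA 1 peak alone (6.37%, background 4.29%) and 167 a siRNA 2 peak alone (15.9%, background 10.6%). Peaks that join the 5′ UTR and coding sequence had the same order, so it was not particular to the 5′ UTR-only class. With siRNA 1, 14.2% of the joined peaks overlapped siRNA 2 alone and 4.70% control alone, and with siRNA 2, 16.6% overlapped siRNA 1 alone and 6.04% control alone. Among 5′ UTR-only siRNA 2 peaks in the lowest 25 score percentiles the order turned, with 131 (29.8%) overlapping control alone and 58 (13.2%) siRNA 1 alone. Other siRNA 2 peaks of that range leaned further to control, at 40.8% with control alone and 5.19% with siRNA 1 alone. Pairwise, 60.8% of siRNA 1 peaks were found with siRNA 2 (background 83.6%) and 48.1% in control (background 81.5%). Of siRNA 2 peaks, 65.4% were found with siRNA 1 (background 80.5%) and 59.7% in control (background 86.1%). Of control peaks, 50.4% were found with siRNA 1 (background 67.1%) and 59.9% with siRNA 2 (background 73.4%).

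**Figure D1:**
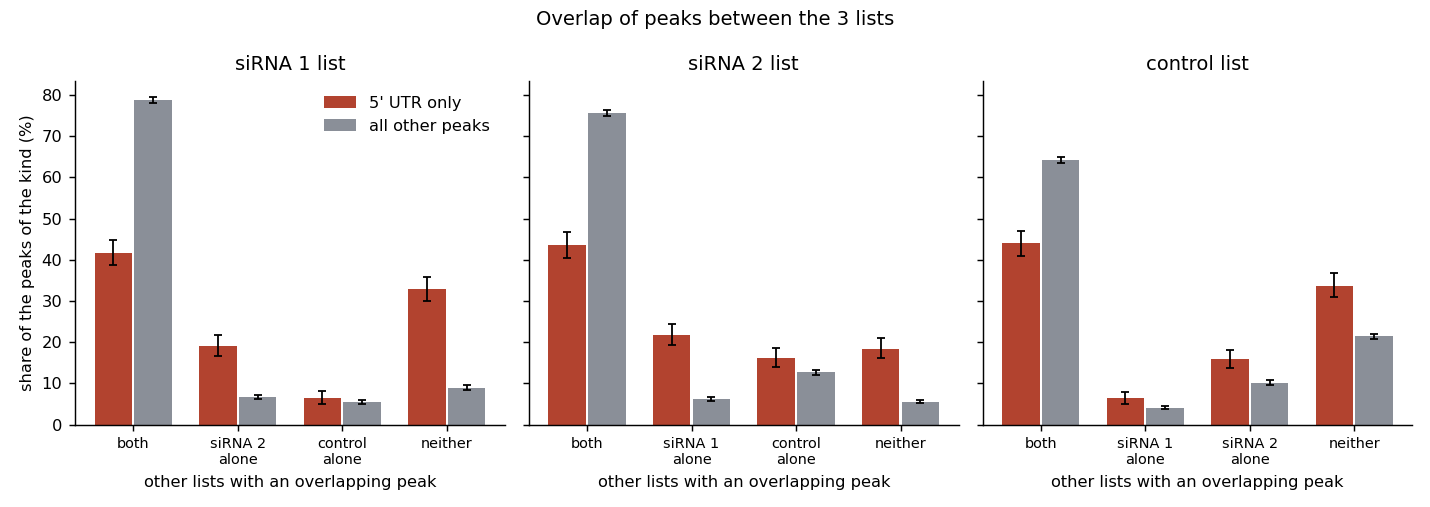
Share of 5′ UTR-only peaks (red) and of all other peaks (grey) by the other lists that hold an overlapping peak, in percent of the peaks of each kind, with 95% exact binomial intervals as error bars, for the siRNA 1, siRNA 2 and control lists. In each panel the red bar is the lower of the pair for peaks in both other lists and the higher of the pair for peaks in neither, with 327, 186 and 355 red peaks in the last class.

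By score, peaks found in 1 list alone were weak with siRNA 2 and in control and less so with siRNA 1. Their median score percentile was 22.8 with siRNA 1, 9.57 with siRNA 2 and 10.1 with control siRNA. For those in all 3 lists it was 30.7, 38.8 and 40.1. By fold the list-alone peaks differed less, with medians of 7.83, 7.21 and 7.01, against 10.7, 16.0 and 14.7 in all 3 lists. An FDR of 0.01 or more was given to 54.1%, 66.7% and 62.5% of the list-alone peaks. Among peaks in all 3 lists the shares were 14.7%, 14.1% and 21.4%. Score, fold and FDR were all shared with another peak for 73.9%, 50.7% and 62.1% of the 5′ UTR-only peaks, against 47.9%, 26.4% and 28.4% of other peaks. Because these peaks sit low in each list, their overlap was also read within ranges of score. Among siRNA 1 peaks in the lowest 25 percentiles, 36.6% (32.3 to 41.1) of the 5′ UTR-only peaks and 15.2% (13.9 to 16.6) of the other peaks were found in that list alone. In the highest 25 percentiles the shares were 22.2% (12.7 to 34.5), 14 of 63 peaks, and 2.80% (2.26 to 3.43). With siRNA 1 the 5′ UTR-only share thus stood above that of other peaks in each of the 4 score ranges.

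The control list ran the other way. In its lowest 25 percentiles 55.3% (50.9 to 59.6) of the 5′ UTR-only peaks were found in control alone, against 60.1% (58.4 to 61.8) of other peaks. From percentile 50 to 75 the shares were 2.34% (0.486 to 6.70) and 8.55% (7.67 to 9.50). Among the 48 control peaks in the highest range none was in control alone, with an upper 95% bound of 7.40%. At a covered width of 200 bases, a comparison added after the data were seen, 44.4% (40.3 to 48.5) of 5′ UTR-only control peaks and 63.8% (61.3 to 66.4) of other control peaks were in control alone. The higher share of 5′ UTR-only peaks in control alone over the whole list did not hold among control peaks of like score or like width. With siRNA 2 the shares were 34.3% (29.9 to 39.0) and 18.0% (16.6 to 19.5) in the lowest range, and at 200 bases 25.9% (22.2 to 29.9) and 27.4% (24.6 to 30.3). For siRNA 1 at 200 bases they were 46.4% (42.1 to 50.8) and 36.9% (34.2 to 39.6).

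**Figure D2:**
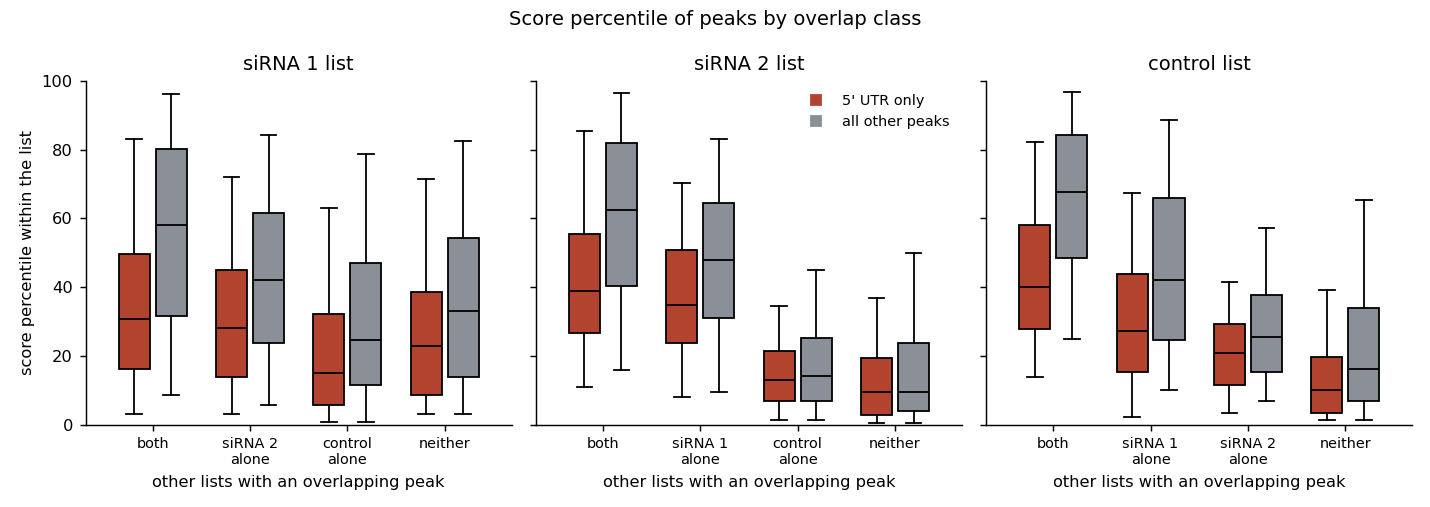
Score percentile within each list (vertical axis, 0 to 100) of 5′ UTR-only peaks (red) and all other peaks (grey), by the other lists that hold an overlapping peak. Boxes span the 25th to 75th percentile of the peaks, lines mark medians and whiskers the 5th and 95th percentile. The red boxes for peaks in neither other list centre on 22.8 with siRNA 1, 9.57 with siRNA 2 and 10.1 in control.

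**Figure D3:**
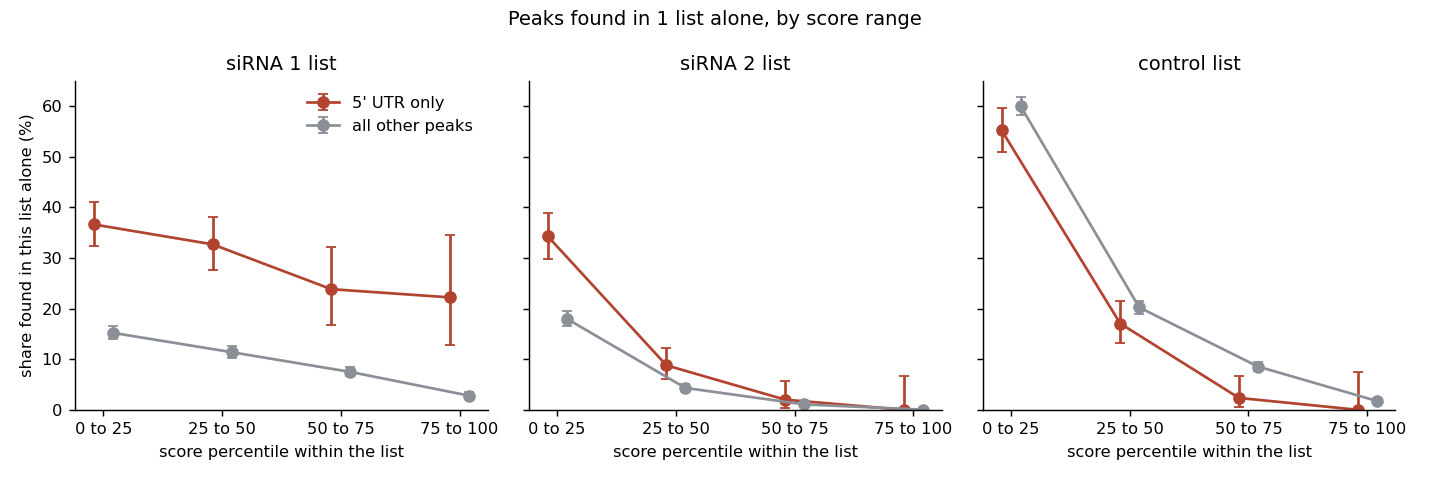
Share of peaks found in their own list alone, in percent, for 5′ UTR-only peaks (red) and all other peaks (grey) in 4 ranges of score percentile, with 95% exact binomial intervals as bars, for the siRNA 1, siRNA 2 and control lists. Red points lie above grey in every range with siRNA 1 and below grey in every range in control.

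Where a peak did recur, it was often the same set of bases. Of the 606 siRNA 1 peaks found with siRNA 2, 351 covered identical bases, and 539 met a peak that was itself 5′ UTR only. Of the 606, 588 met a single siRNA 2 peak, of equal width in 356. Most 5′ UTR-only peaks are a single 200-base bin wide, so identical bases are largely built in where overlapping peaks have equal width. The share with identical bases was not computed for other peaks. Of the 480 siRNA 1 peaks found in control, 219 covered identical bases, 403 met a 5′ UTR-only peak and 72 (15.0%) met a peak that ran on into coding sequence. In the other direction, 124 of the 530 control peaks found with siRNA 1 (23.4%) met a siRNA 1 peak that ran on into coding sequence. ENO1, the glycolytic enolase, had a 200-base 5′ UTR-only control peak at chr1:8878650-8878849, at percentile 91.4, which overlapped peaks reaching the stop codon in both siRNA lists. S100A6, a calcium-binding protein, had one at percentile 94.8 in control, where the siRNA 1 peak reached the stop codon and the siRNA 2 peak reached coding sequence. Such genes are in the class in control and not with the siRNAs, although a peak overlapped in every list.

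Among genes with a 5′ UTR-only peak in every list, 331 control peaks met 5′ UTR-only peaks of both siRNA lists, and the 12 named here were chosen for the highest mean score percentile over the 3 lists, which largely fixes that they stand high in each. U2AF2, a subunit of the factor that recognises the polypyrimidine tract at 3′ splice sites, had the same 800 bases at chr19:55654146-55654945 in each list. Its score percentile was 98.2 with siRNA 1, 98.1 with siRNA 2 and 96.4 with control siRNA, and its fold enrichment 142, 107 and 55.0. Its 5′ end had an offset of -889 bases from the nearest RefSeq start of the gene, which the peak did not hold. BMP2, a secreted growth factor of bone formation, stood at percentiles 96.6, 99.1 and 94.7 and covered 1200 bases with each siRNA, against 1000 in control. UBB, one of the polyubiquitin genes, had the same spliced 200 bases in every list, at percentiles 94.3, 94.5 and 90.4. RPL41 had the same 200 bases at chr12:56116586-56116785 in every list, at percentiles 87.1, 92.0 and 95.8 and at folds of 19.9, 20.1 and 20.1. ZDHHC5, a palmitoyltransferase, stood at 92.4, 89.0 and 97.7. DYRK1A, a dual-specificity kinase, had the widest spread of the 12 named genes of this class, at 94.1 and 91.5 with the siRNAs and 76.6 in control. The other members of the 12 were ZNF146, C6orf62, FBRS, S100A4, S100A16 and YWHAZ, whose percentiles ran from 82.8 with siRNA 1 for YWHAZ to 94.4 in control for ZNF146. All 12 stayed in the top 25% of each list, and YWHAZ, a 14-3-3 adaptor, was the only one to lose most of its width, at 800 bases with each siRNA and 200 in control.

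Shared by both siRNA lists as 5′ UTR-only peaks, and overlapping no control peak, were 173 siRNA 1 peaks in 172 genes. Of these genes, 121 had a control peak elsewhere and 51 had none. TMSB4X, which encodes the actin-binding peptide thymosin beta 4, stood far ahead of the rest. Its peak of 200 bases at chrX:12975108-12975307, which begins 2 bases before the annotated start, was at percentile 95.3 (fold 20.4) with siRNA 1 and 98.3 (fold 19.2) with siRNA 2, and the gene had no control peak of any kind. CSRP1, a LIM-domain protein, also had no control peak, with its siRNA peaks at percentiles 65.7 and 72.5. IGF1R, a growth factor receptor kinase, stood at 86.6 and 79.6, and its 3 control peaks lay in coding sequence, across the stop codon and in the 3′ UTR. GSPT1, the release factor eRF3a, stood at 79.3 and 77.1, and its control peaks lay across the 5′ UTR and coding sequence, without overlap, and in the 3′ UTR. TIMP3, an inhibitor of metalloproteinases, had the 200 bases at chr22:32801701-32801900 at percentiles 72.0 and 77.9, and a control peak in the 3′ UTR. SLC16A3, the lactate exporter MCT4, stood at 77.4 and 71.6, and SLC38A1, an amino acid transporter, at 71.2 and 72.3. NIPA2, a magnesium transporter, stood at 74.2 and 70.1. The remaining 4 named genes were RTN4RL2, LGALS3BP, FBXL19 and MRPS21, between percentiles 63.0 and 81.6, each with at least 1 control peak elsewhere in the gene.

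The strongest peaks found with siRNA 1 alone lay higher in their list by score percentile than those of any other single-list class. The lists differ in the scale of the score, whose median over all peaks was 33 with siRNA 1, 99 with siRNA 2 and 158 in control. ACTB, cytoplasmic beta-actin, had the second highest score of all 997, at percentile 97.8, with a fold of 19.2. Its 200 bases were in 2 blocks between 5530532 and 5540697 on chromosome 7, and the gene had a peak at the stop codon in every list. TIMP1, a metalloproteinase inhibitor, stood at 88.3, JTB at 88.0, CTNNB1, which encodes beta-catenin, at 85.2, CD63, a tetraspanin of late endosomes, at 84.8 and S100A11, a calcium-binding protein, at 84.6. TIMP1, JTB and S100A11 had no peak at all with siRNA 2 or in control. CD63 had a 3′ UTR peak in control and none with siRNA 2. The peaks of 5 of these 6 genes held the annotated start, ACTB being the exception, for which no start was matched. With siRNA 2 alone the highest were HMGB2, a chromatin protein, at percentile 65.4, and ASPM, a spindle protein, at 57.9. MCM3AP, TEAD4 and BHLHE40 stood between 45.7 and 49.1.

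The control list alone held no 5′ UTR-only peak above percentile 55.1. That value belonged to PTP4A1, a phosphatase of the PRL family, with a peak of 400 bases in several blocks at a fold of 11.1. BANF1, which binds DNA at the nuclear envelope, followed at 50.5, and BFAR, an apoptosis regulator, at 50.4. CEPT1, which makes phosphatidylcholine and phosphatidylethanolamine, stood at 49.0, NDUFB3, a complex I subunit, at 48.6 and XRCC6, the Ku70 subunit of DNA end joining, at 48.4. LARP7, which binds 7SK RNA, stood at 47.3, with 800 bases and a fold of 16.6. BANF1, CEPT1, NDUFB3, XRCC6 and LARP7 had no peak in either siRNA list. CCNK, HAUS6, RFX5, FUT8 and ZBTB38 lay between 43.7 and 45.3, and ZBTB38 had 5 peaks elsewhere with each siRNA.

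**Figure D4:**
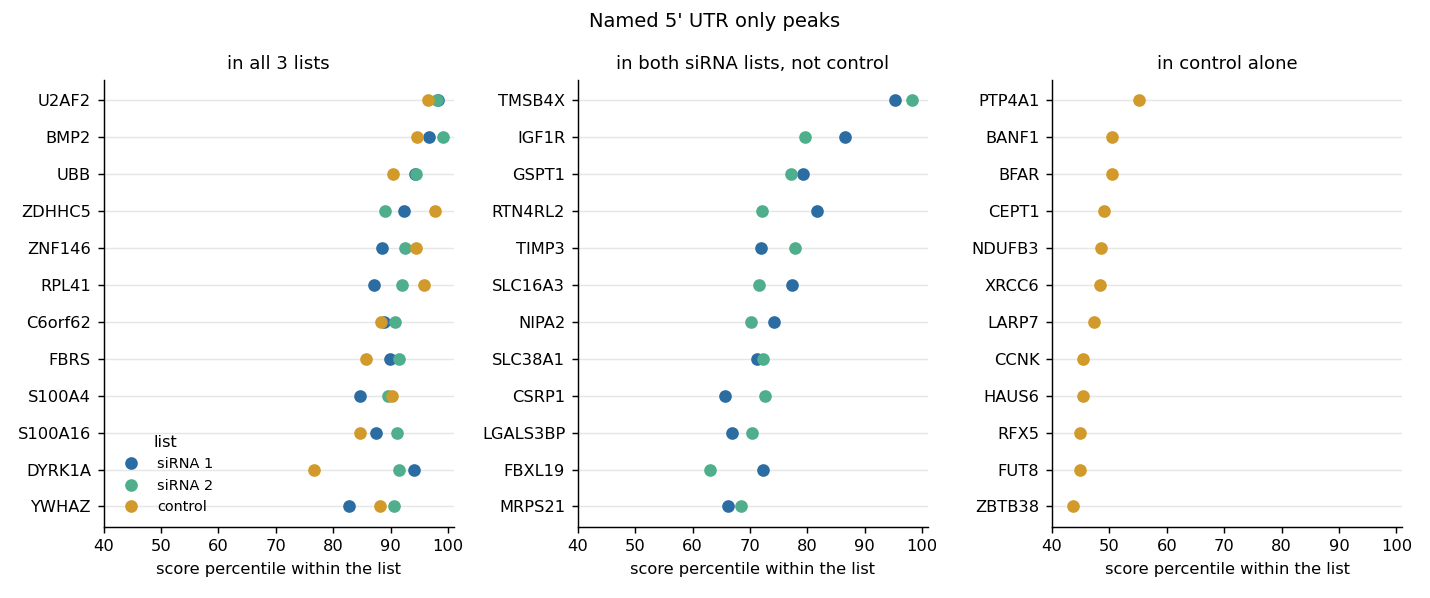
Score percentile within the list (horizontal axis, from 40 to 100) of the named 5′ UTR-only peaks, for siRNA 1 (blue), siRNA 2 (green) and control (orange). The left panel has 12 genes found in all 3 lists, the middle panel 12 found with both siRNAs but not in control, and the right panel the 12 highest found in control alone, none above 55.1.

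Among the peaks for which a RefSeq start of the gene was found, most held such a start. A RefSeq start of the same gene was found for 825 of the 997 peaks with siRNA 1, 855 of 1008 with siRNA 2 and 871 of 1052 with control siRNA. The peak held such a start in 513 of them with siRNA 1 (62.2%, 58.8 to 65.5), 478 with siRNA 2 (55.9%, 52.5 to 59.3) and 476 with control siRNA (54.7%, 51.3 to 58.0). Over all matched peaks of the lists the shares were 16%, 13.8% and 12.2%. Most of those peaks are not annotated to the 5′ UTR, so the higher share here is largely built into the choice of peaks. Matched peaks that join the 5′ UTR and coding sequence held a start in 52.5% (49.6 to 55.4), 49.4% (46.1 to 52.6) and 48.0% (44.7 to 51.4). Within 200 bases of a start lay 85.1%, 78.8% and 77.7% of the matched 5′ UTR-only peaks. The share of 5′ UTR-only peaks that held a start differed between overlap classes in 2 of the lists, with intervals that did not meet. It was 43.5% (35.5 to 51.7) for peaks with siRNA 2 alone and 62.9% (57.7 to 67.9) for siRNA 2 peaks in all 3 lists. In control it was 45.1% (39.3 to 50.9) for peaks in control alone and 65.3% (60.2 to 70.0) for those in all 3 lists. With siRNA 1 it was 62.9% (56.8 to 68.7) for peaks in that list alone and 61.1% (55.6 to 66.3) for those in all 3 lists.

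The first transcribed base was more often A where the peak held the start. Counting each gene once, A was first in 55.2% (50.8 to 59.6) of 507 such genes with siRNA 1, 55.1% (50.5 to 59.6) of 474 with siRNA 2 and 54.1% (49.5 to 58.7) of 473 with control siRNA. Among genes of the same list with other kinds of peak it was 46.0% (44.7 to 47.4), 45.9% (44.6 to 47.3) and 46.2% (44.8 to 47.5). Where the 5′ UTR-only peak lay elsewhere in the gene it was 46.0%, 46.1% and 45.3%. Over all protein-coding genes of the table it was 50.7% (49.9 to 51.5), which lay within the intervals of siRNA 2 and control and just under that of siRNA 1. Peaks that hold the start and run on into coding sequence gave 55.5%, 56.0% and 57.3%, so the excess of A was not particular to peaks confined to the 5′ UTR. Limiting the count to genes with a single start in the table gave 56.0%, 58.8% and 57.9%, against 45.7%, 45.9% and 46.1% for genes with other peaks.

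GGAC, read on the transcript strand alone, was present in the first 50 transcribed bases of 26.2% (22.5 to 30.3) of genes whose 5′ UTR-only peak held the start with siRNA 1, 26.6% (22.7 to 30.8) with siRNA 2 and 26.0% (22.1 to 30.2) with control siRNA. Genes with other peaks gave 19.3%, 19.7% and 19.5%, and all protein-coding genes 19.7% (19.1 to 20.4). Where a peak joining the 5′ UTR and coding sequence held the start, the shares were 21.8% (18.5 to 25.3), 23.3% (19.5 to 27.5) and 21.5% (17.6 to 25.8). These intervals met those of the 5′ UTR-only genes in each list. The wider m6A consensus, known as DRACH, was present in 44.6% (40.2 to 49.0) with siRNA 1, 45.1% (40.6 to 49.8) with siRNA 2 and 48.2% (43.6 to 52.8) in control. That compares with 37.3%, 37.9% and 38.0% of genes with other peaks and 43.9% (43.1 to 44.6) of all protein-coding genes, a share within the intervals of all 3 lists. For genes whose joined peak held the start, DRACH was present in 38.5%, 43.1% and 42.4%. In 3 of the 12 genes printed above the first 50 bases held GGAC, at base 45 in UBB, base 11 in ZDHHC5 and base 27 in ZNF146. All 3 are genes with peaks in every list. The share with GGAC differed little between genes with peaks in all 3 lists (28.4%, 27.1% and 26.6%) and in 1 list alone (24.4%, 31.3% and 28.2%), within intervals as wide as 20.6 to 43.8 for siRNA 2 alone. A match of these letters is a description of the sequence and no measured site. The first 50 bases were read whether or not the peak covered them. In UBB the start was base 16381290 and the peak ended at 16381302, so its GGAC at base 45 lay past the peak. The G and C content of the first 50 bases had a median of 68% with siRNA 1, 68% with siRNA 2 and 66% in control, against 68% in each list for genes with other peaks.

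**Figure D5:**
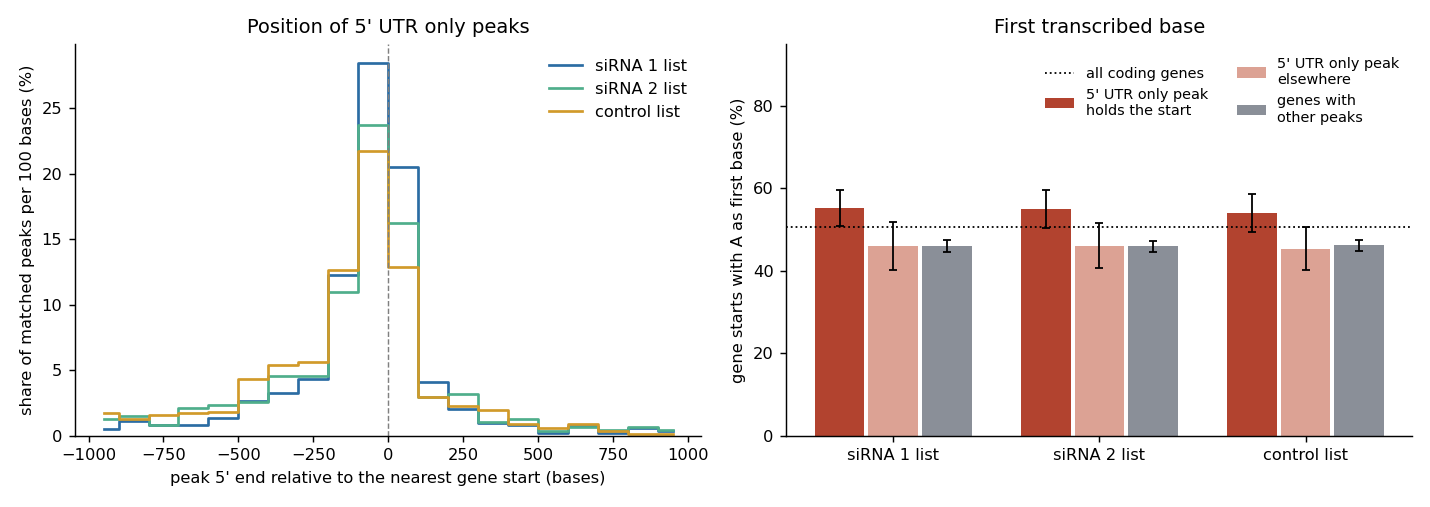
Left, share of matched 5′ UTR-only peaks per 100 bases (percent) by the distance of the peak's 5′ end from the nearest RefSeq gene start, for the siRNA 1 (blue), siRNA 2 (green) and control (orange) lists. Right, share of genes whose first transcribed base is A, with 95% exact binomial intervals, where the 5′ UTR-only peak holds the start, where it lies elsewhere and for genes with other peaks, and a dotted line at 50.7% for all coding genes.

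Most genes with a 5′ UTR-only peak carried a peak along the rest of the transcript as well. A peak in coding sequence, at the stop codon or in the 3′ UTR of the same list was present in 64.2% (61.1 to 67.3) of the 962 genes with siRNA 1, 66.7% (63.6 to 69.7) of the 964 with siRNA 2 and 68.8% (65.9 to 71.7) of the 1010 in control. Over all genes with a peak the shares were 85.9%, 82.2% and 80%, but those genes could enter through that very peak, so the lower share here is partly built into the comparison. For genes of peaks with siRNA 1 alone it was 54.0% (48.4 to 59.5), and 56.4% of them had a siRNA 2 peak of any kind (background 88.8%). Of genes of peaks with siRNA 2 alone, 68.6% had a siRNA 1 peak (background 86.9%) and 71.9% a control peak (background 92%). Genes whose 5′ UTR-only peak was in control alone had a siRNA 1 peak of any kind in 57.4% of cases and a siRNA 2 peak in 58.3%, against 77.8% and 82.3% of all genes with a control peak. Genes of siRNA 1 peaks shared with siRNA 2 alone had a control peak in 70.9%, against 88.9% of all genes with a siRNA 1 peak. A peak list does not measure RNA level, so less RNA of a gene, fewer marked transcripts and weaker enrichment cannot be told apart.

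Between 32 and 41 genes per list carried 2 or more of these peaks. DNASE1 had the most, 4 with siRNA 1 and 3 each with siRNA 2 and in control. All but 1 siRNA 1 peak and 1 control peak of the gene lay between 3651358 and 3654957 on chromosome 16, at offsets of 39598 to 42998 bases from the nearest RefSeq start. MYO18A had 3 with siRNA 2 at offsets of 61532 to 62932 bases, between percentiles 10.9 and 13.04. MGAT1, an enzyme of N-glycan synthesis, had 3 with siRNA 2, at percentiles 82.5, 50.9 and 15.0, of which the peak at 50.9 overlapped no control peak. Across the lists 8.12%, 10.1% and 10.9% of the matched peaks lay more than 5000 bases from the nearest start.

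Gene lists were read as the number of members with a 5′ UTR-only peak among members with any peak. Beside them stands 16.6%, the share over all genes with a peak. Those genes were not limited to protein-coding genes, whereas 1779 of the 1797 genes with a 5′ UTR-only peak were protein coding. The share among protein-coding genes with a peak was not computed and may be higher. Every list but zinc finger ZNF genes, mitochondrial ribosomal proteins and replication histones stood above 16.6%, so a higher share alone was not read as enrichment. The list of translation initiation factors had 8 of 27, with 7 of 25 peaked members with siRNA 1, 4 of 20 with siRNA 2 and 0 of 19 in control. These 8 include EIF5A, EIF4A3 and EIF2AK3, which by the roles given below are not initiation factors, so the counts are not of initiation factors alone. Over all genes with a peak the shares were 11.5% with siRNA 1, 11.2% with siRNA 2 and 10.5% in control. The counts by list of every gene list below stand beside these shares, which have the same limit as the 16.6%. EIF5A, which promotes peptide bond formation, stood at percentile 83.8 with siRNA 1 and 43.3 with siRNA 2, and EIF4A3, a helicase of the exon junction complex, at 38.6 and 50.02. EIF4G2, EIF1AX, EIF4G1 and EIF5 had peaks with siRNA 1 alone, at percentiles 75.2, 69.8, 62.5 and 33.1, each holding the annotated start. EIF4ENIF1 had peaks low in both siRNA lists, at 5.76 and 16.0, and EIF2AK3, the stress kinase PERK, a peak at 27.9 with siRNA 2 that met a siRNA 1 peak running on into coding sequence. EIF1AX, EIF4A3, EIF4G2, EIF5 and EIF5A had no control peak at all.

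The integrated stress and unfolded protein response gave 7 of 25 members. ATF4, the transcription factor whose translation is set by open reading frames in its 5′ UTR, had 5′ UTR-only peaks in all 3 lists that did not all coincide. With siRNA 1 it covered 200 bases at chr22:39520471-39520670 (percentile 76.6, fold 16.2), and with siRNA 2 it covered 600 bases between 39519695 and 39520670 (percentile 83.3, fold 10.2). The control peak covered 200 bases between 39519695 and 39520270 (percentile 19.7, fold 12.9) and did not overlap the siRNA 1 peak. IBTK and TRIB3, a pseudokinase induced by ATF4, had overlapping 5′ UTR-only peaks in every list, at percentiles 33.1, 54.3 and 62.5 for IBTK and 31.5, 55.4 and 40.6 for TRIB3. Heat shock chaperones gave 3 of 16, none with a 5′ UTR-only peak in every list. HSPA1B, an inducible HSP70, had a peak with siRNA 1 alone at 69.8, and BAG3, its co-chaperone, had the same 200 bases at 50.02 with siRNA 2 and 50.3 in control, where the siRNA 1 peak ran on into coding sequence.

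Immediate-early genes, transcribed within minutes of a stimulus, gave 13 of 43, with 10 of 43 peaked members with siRNA 1, 7 of 43 with siRNA 2 and 6 of 42 in control. EGR1 had the same 200 bases with both siRNAs, at percentiles 51.4 (fold 23.2) and 30.6 (fold 11.5), and no overlapping control peak. FOS, MYC, CCN2, GADD45B and MAFK had peaks with siRNA 1 alone, between percentiles 8.67 and 57.4, and each of them had a control peak at the stop codon. GADD45A, IER2, NR4A1 and TIPARP had 5′ UTR-only peaks in all 3 lists, while DUSP6, a phosphatase of ERK, had one with siRNA 2 and in control, at 8.15 and 31.0. The hypoxia pathway gave 5 of 15, with 3 of 15 peaked members with siRNA 1, 3 of 14 with siRNA 2 and 0 of 12 in control. HIF1A, the oxygen-regulated transcription factor, had a peak at 67.7 with siRNA 2 that began at the annotated start, met a siRNA 1 peak running on into coding sequence and had no control peak. EPAS1 had one with siRNA 1 alone at 29.9, EGLN2, a prolyl hydroxylase acting on HIF, had one with both siRNAs at 18.7 and 33.6, and P4HA2 (siRNA 1) and SLC2A1 (siRNA 2) had one that overlapped a peak in each other list.

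Cyclins, CDKs and their inhibitors gave 10 of 23, the highest share of the 18 lists (43.5%). By list it was 5 of 21 peaked members with siRNA 1, 5 of 18 with siRNA 2 and 7 of 19 in control. CDK17 and CDK5 had one in control alone, at percentiles 1.27 and 4.45. CCND1 had the same 200 bases with both siRNAs, at percentiles 52.8 and 58.5, and no overlapping control peak, whereas CDK16 and CCNE1 had 5′ UTR-only peaks in every list. RNA decay factors gave 10 of 28, with 7 of 23, 5 of 19 and 4 of 22 peaked members. DDX6, a helicase of P-bodies, and PAN2, a deadenylase subunit, had them in every list, DDX6 at 44.2, 42.0 and 66.6. CNOT1 and CNOT8 had one with siRNA 1 alone, at 33.1 and 8.67, and no control peak. Genes of m6A metabolism gave 6 of 25, all below percentile 55, among them YTHDF3, a paralogue of YTHDF2, at 54.3 with siRNA 2 and YTHDC1, the nuclear reader, at 24.6 with siRNA 1. YTHDF2 itself had 1 peak in each list, which spanned the stop codon and in control reached the 5′ UTR as well, and none within the 5′ UTR alone. The level of its RNA is not measured by these lists.

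Cytosolic ribosomal proteins gave 10 of 27, with 3 of 17, 5 of 20 and 7 of 23 peaked members, and RPL41 was the only one above percentile 80. RPL23A, RPL26L1 and RPL30 had theirs with siRNA 2 and in control and not with siRNA 1, at percentiles 11.96, 16.95 and 13.04 with siRNA 2 and 16.2, 31.0 and 23.2 in control. RPL15 had a control peak at percentile 1.27 with a score of 3, the lowest given, and a fold of 3.42, shared by all 65 control 5′ UTR-only peaks of that score. Splicing factors gave 9 of 34, with 2 of 31, 3 of 21 and 7 of 27 peaked members, and proteasome subunits 7 of 27, with 1 of 20, 2 of 17 and 4 of 18. Zinc finger ZNF genes (54 of 351, 15.4%) and mitochondrial ribosomal proteins (7 of 50, 14%) stood near the share of all genes. Solute carriers gave 42 of 184 (22.8%) and the respiratory chain with ATP synthase 11 of 45. Genes with RAB names gave 10 of 40, among them RAB5IF, which is not itself a RAB GTPase. CYCS, which encodes cytochrome c, had one in every list, at 80.5, 68.6 and 82.2. Other TOP mRNAs gave 4 of 11, and replication histones 2 of 17.

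Of 10 mesenchymal and bone markers, 5 had a peak with siRNA 1, 4 with siRNA 2 and 3 in control, and SPARC, COL1A2, FN1, CDH2 and TWIST1 had none in any list. Of 10 epithelial markers, 3, 3 and 1 had a peak, and EPCAM, CDH1, KRT18, KRT19, CLDN7, ESRP1 and GRHL2 had none. A marker without a peak may be expressed without the mark, so these counts do not settle the labelled cell type.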

How the data were processed

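The labels give 6 libraries, 1 m6A-IP and 1 input for each of 3 conditions. The authors deposited 1 peak list per condition, named as merged over 2 replicates. Per the submitters' processing notes, reads were aligned with HISAT2 to hg38. The caller of the peaks and the meaning of the score were not given in the sources used here. Each deposited score is a whole number, at least 3 among 5′ UTR-only peaks. The fold enrichment (a ratio) and the −log10 FDR of each peak are the authors' values, per the file headers, and every 5′ UTR-only peak had an FDR of 0.05 or less. Scores and folds were used only within a list, and values side by side measure no change. Read depth is unknown.

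Peaks were kept as 5′ UTR only where the annotation held no other term. Starts were raised by 1, and peaks counted as overlapping if blocks on 1 strand shared 1 base or more. Score percentile is the share of the list at or below a peak, ties averaged. Gene starts, first bases and sequences came from the RefSeq tables of GRCh38.p14, any listed start counting as held. Of 10785 symbols, 8843 were current, 658 were updated and 1284 kept. On simulated lists the overlap step was tested, and 5237 of 5237 peaks received their planted class. No p-value was computed. Tools were Python 3.11.15, pandas 2.3.3, SciPy 1.17.1 and matplotlib 3.10.9.

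Members and the 18 gene lists were chosen with earlier results of these data known. Named genes were the 10 highest scores per list, up to 12 per class for peaks in all 3 lists, in both siRNA lists and in control alone, up to 6 for each siRNA alone, genes with the most peaks, and up to 4 members per gene list in alphabetical order. Further members of the gene lists were named after their values were seen. Some genes that the rule names are not reported here. Alternatives were stricter FDR, score and fold limits, other overlap rules, other definitions of a 5′ UTR peak and a wider gene start.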

Additional observations from a re-analysis of the deposited data

How the results depend on the processing

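Of 96 alternative values for 21 results, 42 moved by less than the counting interval and 54 moved further. Values run siRNA 1, siRNA 2, control. The share of 5′ UTR-only peaks was 6.16%, 5.87% and 5.09% at an FDR under 0.01, 2.94%, 3.06% and 2.31% in the 50% with the highest score, and 2.97%, 3.08% and 2.04% in the top 50% by fold. It was 18.9%, 16.6% and 14.4% with any 5′ UTR peak free of 3′ UTR and stop codon, and with equal numbers of top peaks 5.68% in control. Control was lowest under each of these settings.

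The share in 1 list alone was 37.9%, 22.6% and 40.4% where 50% of each peak had to be in common, and 46.4%, 25.9% and 44.4% for peaks that cover 200 bases, a choice made after the data were seen. At an FDR under 0.01 it was 35.8% with siRNA 1 and 30.1% in control, and in the top 50% by fold 37.9% and 30.1%. With equal numbers of top peaks it was 34%, 21.7% and 18.7%, and in the 50% with the highest score 31.6%, 17.2% and 15.9%. Control, highest with all peaks, was lowest under both of these settings, which leave out its weakest peaks by construction, and siRNA 1 was highest under these, the FDR, the fold and the 200-base settings.

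With 50% in common, siRNA 1 peaks were found at 55.3% with siRNA 2 and 40.02% in control, siRNA 2 peaks at 60.4% with siRNA 1 and 52.9% in control, and 42.9% and 52.9% of control peaks with siRNA 1 and siRNA 2. With a 5′ UTR-only partner the same shares were 54.1% and 40.4%, 53.5% and 53.4%, and 38.0% and 50.4%. The lowest of the 6 shares was thus that of siRNA 1 in control at 50% in common and that of control in siRNA 1 with a 5′ UTR-only partner. With equal numbers of top peaks, control held 44.7% (siRNA 1) and 54.1% (siRNA 2), and 66.0% and 74.0% of control peaks with siRNA 1 and siRNA 2. In the top 50% by score, siRNA 2 peaks gave 73.0% with siRNA 1 and 56.4% in control, and control peaks 72.7% and 76.7%. In the top 50% by fold, siRNA 1 and siRNA 2 peaks gave 36.9% and 52.7% in control, and control peaks 68.6% with siRNA 2. At an FDR under 0.01 control peaks gave 53.8% and 63.1%. A start within 200 bases of the peak counted for 85.1%, 78.8% and 77.7%.

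No paired analysis was possible because each condition has 1 merged list, so shared replicate numbers pair nothing. Depth is unknown. FDR values near 0.05 were not confined to peaks low by score. RAB5IF in control stood at percentile 83.4 with a −log10 FDR of 1.32, and HIF1A with siRNA 2 at 67.7 with 1.38. With 1 list per condition, a siRNA effect and a difference between libraries cannot be told apart.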
